A study of Mus musculus with 31 samples.

Results

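The data described here are 1717 regions of open chromatin that, among non-neuronal cells of the uninjured mouse spinal cord, were much more open in oligodendrocyte progenitors (OPCs) than in ependymal, ACNT or vascular cells. They were drawn from 96670 peaks of 1 single-cell ATAC sample (an assay in which a transposase cuts accessible DNA), so they make up 1.78% of all peaks. Cuts were summed over the cells of each class that the authors named, and each sum was expressed as cuts per 1000000 cuts of its pool (CPM). A peak was taken when the OPC pool reached at least 10 CPM and at least 4 times the level of each of 3 other pools. These were EP (the authors' ependymal classes EP1, EP2 and EP3), ACNT (ACNT1 and ACNT2) and VP (VEC and PER). The peaks were thus chosen by their OPC level and its ratio to the other pools, and those values are given below only as a description. Levels of the same cells cannot test that choice, and there was 1 sample, so no test between cell classes was made. Applied to the other pools, the same rule took 2953 EP peaks, 1236 ACNT peaks and 1741 VP peaks.

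The study followed ependymal cells, the ciliated cells that line the central canal of the cord, with and without added Olig2. Besides the single-cell ATAC sample it held 12 bulk RNA libraries, 6 single-cell RNA samples and 12 bulk ATAC libraries, and these bulk ATAC libraries were not analysed here. All 31 samples were spinal cord from mice of the C57BL/6 background. Bulk RNA was made by Smart-seq2 from cells labelled ependymal that were obtained by tissue digestion and flow cytometry, with 2 libraries per group: Foxj1_Olig2_tdT without injury (Uninj), at 1dpi and at 5dpi, and Foxj1_tdT at the same 3 times. The name Foxj1_tdT joins Foxj1, a gene of ependymal cells, with the red fluorescent protein tdTomato. Both genotypes carry that name, and Foxj1_Olig2_tdT adds Olig2. The single-cell RNA samples were of the same genotypes, each with 1 sample without injury, 1 at 2wpi and 1 at 4wpi. The labels do not expand dpi and wpi, which are read here as days and weeks after injury. Neither the design of the alleles nor the animals' age is given in the labels. Nothing in them tells if the 2 libraries of a group were different mice, and p-values cover only the spread between libraries, which could be technical.

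Oligodendrocyte progenitors are dividing glia that persist in the adult cord and give rise to the oligodendrocytes that wrap axons in myelin. Their identity rests on transcription factors such as Olig2, Sox10 and Nkx2-2, and they carry the PDGF receptor Pdgfra and the proteoglycan Cspg4 (NG2) at their surface. Progenitors receive synapses from neurons and express transmitter receptors and channels, and on commitment they pass through a stage marked by Gpr17 and Bmp4 before myelin genes come on. Open chromatin marks promoters and distal elements that transcription factors can reach, and a region can be open without its nearest gene being transcribed.

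The promoters of 6 genes that overlapped these peaks, wholly or in part, are shown to give the sequences behind the values that follow. Each runs 5′ to 3′ along the gene's strand from RefSeq's promoter table (GRCm38.p6, the same assembly as mm10), 250 bases before the start and 50 after it. Capitals mark each match to a motif of oligodendrocyte factors, on either strand. For basic helix-loop-helix factors such as Olig2 these were the word CAGCTG, its variant CAGATG and the further variant CATATG. For Sox factors they were the word ACAAAG and its variant ACAATG. Matches of different words may overlap by a few bases.
The genes are Gjc3 (connexin 29 of oligodendrocytes, chr5:137963049-137963348, minus strand), Dll3 (a Notch ligand family member of neural progenitors, chr7:28301736-28302035, minus strand) and Pdzrn4 (a PDZ and RING finger protein, chr15:92596859-92597158, plus strand). These 3 were called higher in Foxj1_Olig2_tdT cells at 5dpi and were chosen after their values were seen. Each holds a motif word. The promoters of C1ql2, Grik3, Tcerg1l, Susd5, Vstm2a and Map2k4, also in these peaks and called at 5dpi, hold none.
Gjc3: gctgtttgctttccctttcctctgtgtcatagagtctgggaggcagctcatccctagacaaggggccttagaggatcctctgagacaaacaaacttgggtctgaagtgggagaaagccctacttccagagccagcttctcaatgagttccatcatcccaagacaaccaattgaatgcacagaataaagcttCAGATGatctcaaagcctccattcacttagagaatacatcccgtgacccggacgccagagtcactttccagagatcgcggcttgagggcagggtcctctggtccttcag
Dll3: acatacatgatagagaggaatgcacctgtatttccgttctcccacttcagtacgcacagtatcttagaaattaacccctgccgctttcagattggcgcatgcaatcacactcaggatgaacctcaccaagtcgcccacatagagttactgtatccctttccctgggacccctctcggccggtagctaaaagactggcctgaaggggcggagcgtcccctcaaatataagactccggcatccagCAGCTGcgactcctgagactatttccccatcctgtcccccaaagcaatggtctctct
Pdzrn4: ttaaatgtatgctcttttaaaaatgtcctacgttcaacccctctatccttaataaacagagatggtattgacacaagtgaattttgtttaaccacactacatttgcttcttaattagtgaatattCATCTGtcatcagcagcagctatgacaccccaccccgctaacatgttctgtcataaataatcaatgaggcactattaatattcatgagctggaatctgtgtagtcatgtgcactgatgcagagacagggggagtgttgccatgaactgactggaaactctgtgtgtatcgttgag
The match in Pdzrn4 is the reverse complement of CAGATG. It lies outside the peak (chr15:92597001-92597576), which overlaps only the later part of that window. The Pcdh15 peak below (chr10:73821696-73822209) also begins inside the window, but before the match. The next 3 belong to progenitor genes, of which Zfp488 and Pcdh15 were not called at 5dpi and Neu4 had no tested row: Zfp488 (a zinc finger factor of oligodendrocytes, chr14:33978715-33979014, minus strand), Pcdh15 (a protocadherin of progenitors, chr10:73821617-73821916, plus strand) and Neu4 (a sialidase of progenitors, chr1:94020243-94020542, plus strand). None of the motif words occurs in the Neu4 window, nor in the promoters of Ugt8a, Nxph1 and Nkx6-2, lineage genes that also lay in these peaks.
Zfp488: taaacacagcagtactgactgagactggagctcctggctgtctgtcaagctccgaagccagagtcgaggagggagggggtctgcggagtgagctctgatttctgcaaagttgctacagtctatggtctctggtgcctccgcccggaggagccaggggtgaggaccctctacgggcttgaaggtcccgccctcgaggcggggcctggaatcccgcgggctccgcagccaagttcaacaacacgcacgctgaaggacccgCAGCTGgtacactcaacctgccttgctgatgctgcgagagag
Pcdh15: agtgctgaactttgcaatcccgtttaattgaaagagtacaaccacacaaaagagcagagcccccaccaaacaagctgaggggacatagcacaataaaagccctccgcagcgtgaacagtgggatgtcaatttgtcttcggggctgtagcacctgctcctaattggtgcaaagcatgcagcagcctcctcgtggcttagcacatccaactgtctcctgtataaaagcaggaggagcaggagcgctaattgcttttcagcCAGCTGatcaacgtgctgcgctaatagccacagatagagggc
Neu4: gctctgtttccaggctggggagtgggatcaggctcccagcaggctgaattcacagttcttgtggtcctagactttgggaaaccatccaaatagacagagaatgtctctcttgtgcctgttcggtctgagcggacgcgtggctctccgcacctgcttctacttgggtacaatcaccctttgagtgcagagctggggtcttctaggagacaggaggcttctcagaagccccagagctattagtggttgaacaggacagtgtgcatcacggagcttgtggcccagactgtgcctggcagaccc

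The peaks overlapped 302 of the 32851 RefSeq promoters, which belonged to 266 genes. The word CAGCTG occurred in 27.2% of them, against 16.3% of all promoters, and CAGATG in 21.9% against 17.2%. The Sox words were no more frequent than elsewhere, with ACAAAG in 16.2% against 18.7% and ACAATG in 8.28% against 12.6%. CATATG stood in 2.32% of the overlapped promoters and in 3.92% of all. Any of the 5 words was present in 57.3% against 51.9%, so a match in a single promoter says little. The share with CAGCTG was 27.3% in promoters overlapped by VP peaks, 20.9% for EP peaks and 13.3% for ACNT peaks, so it did not set the OPC peaks apart from the vascular ones. The overlapped promoters also had a higher GC content, with a median of 59.2% against 52.7% for all promoters, and the part of base composition in these shares was not tested.

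The OPC pool held 67 cells and 2541658 cuts in peaks, the EP pool 754 cells and 24882631 cuts, the ACNT pool 173 cells and 3384325 cuts, and the VP pool 90 cells and 1398896 cuts. Most matrix values (89.9%) were even numbers, since the 2 ends of a fragment often fall in the same peak, so exact Poisson intervals, given below at the 95% level, cover counting error only and are too narrow. A count of 0 allows up to 0.121 CPM in EP, 0.886 CPM in ACNT and 2.15 CPM in VP, taking 3 cuts as the limit. The class names were set against marker lists, by the cuts summed over peaks in or within 2 kb of each gene. These sums include peaks that the rule chose, such as 30 of the 225 at membrane and secreted OPC genes. Of 23 membrane and secreted OPC genes, 18 had their highest level in the OPC pool, while 12 of 16 ependymal genes were highest in EP, 13 of 15 astrocyte genes in ACNT and 7 of 10 endothelial genes in VP. Other lists were mixed: of 14 OPC transcription factors 6 were highest in OPC, 6 in ACNT and 2 in EP, and of 10 pericyte genes 5 were highest in OPC and 3 in VP.

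The peaks were mainly rather than wholly confined to progenitors. Their median level was 18.9 CPM in OPC (from 10.2 to 116.5), 0.965 CPM in EP, 1.18 CPM in ACNT and 0.715 CPM in VP, whereas over all 96670 peaks the medians were 2.36, 3.22, 2.36 and 1.43 CPM in the same pools. Cuts were absent from EP in 125 peaks, from ACNT in 358 and from VP in 855, the shallowest pool, and 52 peaks had no cut in any of the 3. The highest of the other pools was ACNT in 708 peaks, EP in 617 and VP in 392. Among peaks with cuts elsewhere the median ratio to the highest other pool was 7.72, and 689 of the 1717 peaks stood at least 10 times above it or had no cut there. A median of 20 OPC cells had a cut in a given peak (from 7 to 53), which is 29.9% of the 67 cells, and a median of 48 cuts lay behind each OPC level.

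**Figure D1:**
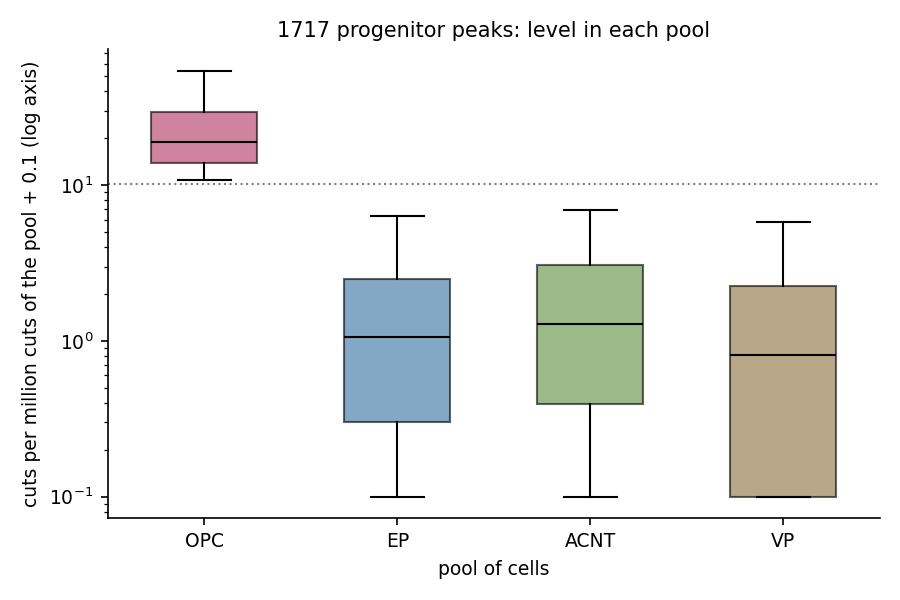
Level of the 1717 peaks in each pool of cells, in cuts per 1000000 cuts of the pool plus 0.1 on a log axis. Boxes span the quartiles with the median as a line, whiskers reach the 5th and 95th percentiles, and the dotted line marks the minimum of 10 CPM in OPC. The OPC median is 18.9 CPM, and the other medians lie between 0.715 and 1.18 CPM.

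The level rule ended among peaks of near-equal depth. The peaks just inside it had 26 OPC cuts and 10.2 CPM, 1 of them near Eya1 and another near Nyap2, while those just outside had 25 cuts and 9.84 CPM, among them peaks near Mgat4a and Nav1. The ratio rule ended between peaks near Dlg2 and Zfp516, at 4.005 times the highest other pool, and a peak near Gse1, at 3.9946 times. Peaks on either side of a threshold thus had nearly the same values.

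The share of a cell's cuts that fell in the peaks varied among the OPC cells, which are the cells that chose the peaks. The peaks held a median of 4.44% of an OPC cell's cuts (from 1.48% to 5.77%), against medians between 0.239% and 0.311% in the EP classes, 0.322% in ACNT1, 0.357% in ACNT2, 0.135% in VEC and 0.284% in PER. The highest ACNT1 cell, at 1.70%, lay above the 5 lowest OPC cells, which reached 1.67%. A median of 605 of the 1717 peaks had a cut in a given OPC cell (from 70 to 944). Of the 67 OPC cells, 5 had under 2% of their cuts in the peaks and 3 more had between 2% and 3%. Those 5 cells had between 18823 and 104964 cuts, against an OPC median of 37481, and held 8.29% of the pool's cuts. They had between 0.707% and 4.40% of their cuts in EP peaks, where the median OPC cell had 0.404%. With them left out, the rule took 1892 peaks, of which 1683 were among the 1717. Without the lowest cell alone, which had 104964 cuts and 4.40% of them in EP peaks, it took 1830, of which 1699 were shared. Whether these cells are doublets was not tested.

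**Figure D2:**
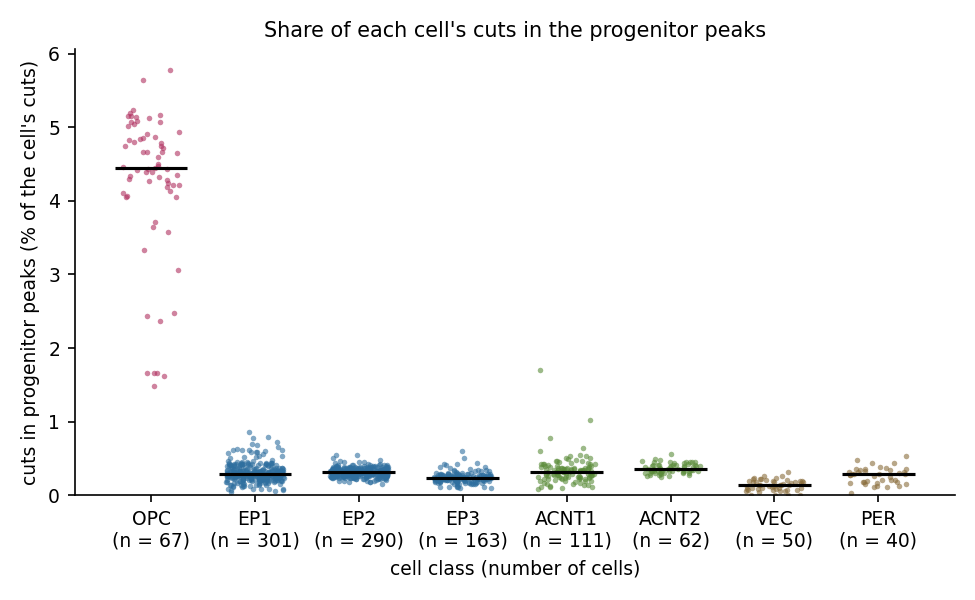
Share of each cell's cuts that fell in the 1717 peaks, in percent, by cell class; a point is a cell, a line the class median, and n the number of cells. OPC cells have a median of 4.44% and reach down to 1.48%, and the medians of the other classes lie between 0.135% and 0.357%.

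Most of the peaks lay inside genes. Of the 1717, 1124 (65.5%) were within a protein-coding gene, 322 (18.8%) were outside but within 50 kb of one, at a median of 14.8 kb, and 271 (15.8%) were farther away. Over all peaks the shares were 62.4%, 22.9% and 14.6%. A gene's start lay within 1 kb of 280 of the 1659 peaks on chromosomes other than 18, for which the gene table gave starts. That is 16.9%, against 6.503% for EP peaks, 6.02% for ACNT peaks, 10.2% for VP peaks and 14.97% for all peaks. The OPC peaks were 581 bp wide at the median, close to the 587 bp of all peaks and narrower than the 1248 bp of EP peaks. In all, 15 of them (0.874%) were on the X chromosome, which held 1.73% of EP peaks, 1.46% of ACNT peaks, 0.747% of VP peaks and 2.46% of all peaks.

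The 1446 peaks in or near a gene were assigned to 1176 genes. Of these, 965 had 1 peak, 171 had 2 and 40 had 3 or more. Anks1b (a scaffold protein of postsynaptic sites), Lmf1 (a lipase maturation factor) and Dscam (a cell adhesion molecule of neurons) had 6 each. Itga9 (an integrin subunit) and Dlg2 (PSD-93, a postsynaptic scaffold) had 5 each. Those with 4 were Dscaml1, Opcml, Cacng4, Csmd1, Pde4dip and Trit1. Long genes can hold more peaks: the genes had a median length of 78.2 kb, against 23.6 kb for all protein-coding genes with a peak. The peaks of Anks1b reached 71.2, 51.5, 33.4, 25.2, 22.8 and 17.3 CPM in OPC, so a gene's peaks also differed in height among themselves.

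The highest peaks were not mainly those of the textbook progenitor genes. The first, in Tmem132e (a transmembrane protein, chr11:82386874-82390010), had 116.5 CPM in OPC (interval 103.6 to 130.5, in 51 of 67 cells), against 9.65 CPM in EP, 8.86 CPM in ACNT and 7.15 CPM in VP. The second lay in no gene, at chr5:75346800-75348125, 149 kb from Pdgfra, with 100.3 CPM in OPC against 1.21, 1.48 and 4.29 CPM in EP, ACNT and VP. The third spanned the start of Gad1 (glutamate decarboxylase, which makes the transmitter GABA, chr2:70560926-70563621), with 96.8 CPM in OPC against 4.58, 7.39 and 1.43 CPM. The next in order were peaks of Cdh6, Sgcd, Cspg4, Dcc, Col9a2, Sez6l and Arhgap31, between 83.4 and 96.4 CPM.

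Of the peaks with no cut in another pool, the highest lay in no gene (chr13:101470571-101471293), with 128 cuts in OPC, 50.4 CPM, in 38 of 67 cells. The next with a progenitor gene were in Xylt1 (xylosyltransferase, which starts the sugar chains of proteoglycans), with 88 cuts and 34.6 CPM, and 1.01 kb from C1ql1 (a secreted C1q-like protein of progenitors, chr11:102937756-102938252), with 86 cuts and 33.8 CPM.

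Among 14 OPC transcription factors, 7 had at least 1 of the peaks. For comparison with this and the lists below, 1176 of the 16673 genes with any assigned peak had one. Listed genes can hold many peaks: 150 lay in or within 2 kb of these 14, and 7 of them were among the 1717. For the membrane and secreted, the committed and the myelin lists below it was 30 of 225, 13 of 220 and 5 of 50. The 1717 make up 1.78% of all peaks. The Olig2 locus had 1, at chr16:91232228-91234080, 3.55 kb beyond the gene, with 78.7 CPM in OPC (interval 68.2 to 90.4, in 49 of 67 cells), 1.09 CPM in EP, 15.96 CPM in ACNT and none in VP. The peaks at the bodies of Olig1 and Olig2 themselves were not among the 1717, because ACNT had the higher level: summed within 2 kb, the Olig2 peaks had 118.8 CPM in OPC and 221.6 CPM in ACNT, and Olig1 46.8 CPM in OPC and 121.7 CPM in ACNT. At this locus only the distal peak met the rule. Nkx2-2, which favours oligodendrocyte differentiation, had peaks of 73.2 and 44.9 CPM in OPC, with 13.6 and 3.55 CPM in ACNT. Sox6, which holds progenitors undifferentiated, had 37.0 CPM in OPC and 7.15 CPM in EP. Nkx6-2 and Tcf7l2, both active in differentiating oligodendrocytes, had 23.2 CPM each, and Zfp488 had 14.2 and 11.8 CPM.

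Sox10, the factor that drives myelin genes, had no peak assigned to it because other genes lay nearer. Of the peaks, 3 were in its neighbourhood on chromosome 15, at 1.81 kb (chr15:79151815-79153107, assigned to Polr2f), 37.0 kb (chr15:79201455-79202327) and 48.2 kb (chr15:79212692-79213336, assigned to Pick1). Their OPC levels were 63.0, 61.4 and 43.3 CPM.

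Surface and secreted proteins of progenitors had peaks at 14 of 23 genes, 31 peaks in all, and at least 1 cut in them in 66 of the 67 OPC cells. Pdgfra had a peak inside the gene (chr5:75163108-75163851) with 55.5 CPM in OPC, 0.121 CPM in EP and 0.591 CPM in ACNT. A further Pdgfra peak 25.7 kb away had 21.6 CPM in OPC and no cut elsewhere. Cspg4 had peaks of 88.9, 30.3 and 26.4 CPM, and the highest of them also had 13.6 CPM in VP, where pericytes are known to express the gene. Cacng4 (a subunit that escorts AMPA receptors) had 48.4, 32.3, 14.6 and 13.8 CPM, Lhfpl3 42.1 and 29.9 CPM, Tnr (tenascin-R, a matrix protein) 35.4, 17.7 and 11.8 CPM, and Neu4 37.4 and 26.4 CPM. Pcdh15 had 47.6, 19.7 and 13.4 CPM, the last at the promoter printed above. In all of these genes the EP level of every peak was at or below 3.74 CPM.

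Genes of later stages of the lineage had peaks too. Of 15 genes of committed and newly formed oligodendrocytes 9 had a peak, among them Gpr17 (a receptor of the committed stage, 81.1 and 23.2 CPM), Frmd4a (a scaffold protein, 50.4 and 10.6 CPM) and Bmp4 (a secreted signal, 12.98 CPM). Of 19 myelin and mature genes 5 had one. These were Ugt8a (the enzyme of galactolipid synthesis, 62.6 CPM), Gjc3 (51.5 CPM at 3273 bp from the gene and 32.3 CPM at the printed promoter), Cldn11 (a tight junction protein of myelin, 44.1 CPM), Mbp (17.7 CPM) and Mobp (12.2 CPM). Mature oligodendrocytes were not among the classes compared, so whether these 5 loci are more open there was not tested.

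Genes that neurons are known for were also among them. Of 25 synaptic, channel and receptor genes 12 had a peak (21 peaks), and of 26 genes of adhesion and axon guidance 13 had one (20 peaks). These lists hold many peaks: 250 and 538 of all peaks lay in or within 2 kb of their genes, and 17 and 19 of those were among the 1717, which make up 1.78% of all peaks. Of the 9 genes of the neuron marker list 5 had one: Gad1, Elavl4 (a neuronal RNA-binding protein, 32.7 and 22.4 CPM), Syt1 (the calcium sensor of transmitter release, 30.7 CPM), Tubb3 (a neuronal tubulin, 21.6 CPM) and Rbfox3 (NeuN, 14.6 CPM). Of the 67 OPC cells, which are the cells that chose the peaks, 59 had a cut in at least 1 of the 6 peaks at neuron genes, and the cell with most held 4.86% of those cuts. Over all peaks within 2 kb of neuron list genes the sums were 396.6 CPM in OPC, 170.8 CPM in EP, 144.8 CPM in ACNT and 79.4 CPM in VP. Of the 9 genes, 6 were highest in OPC. These sums include the 6 peaks chosen for their OPC level, so in part they restate the choice and cannot check it.

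Lists of other cell types were counted in the same way. Peaks stood at 2 of 16 ependymal genes (Dnah11 and Tekt1, both parts of motile cilia), 1 of 15 astrocyte genes (Aldh1l1, 18.4 kb outside the gene), none of 10 endothelial and none of 10 microglial genes. Among all genes with an assigned peak it was 1176 of 16673. The ependymal and astrocyte lists held 88 and 134 peaks in or within 2 kb of their genes, of which 1 and 0 were among the 1717. The endothelial and microglial lists held only 32 and 12 peaks of any kind in or within 2 kb of their genes, so that at 1.78% of all peaks a count of 0 says little. The single pericyte gene was Cspg4 and the single fibroblast gene Pdgfra, both of which are also progenitor markers.

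The single-cell RNA table gave an independent readout of the same genes, in other cells. Its 2923 cells used here carried 5 library codes. No label links a code to a sample, so the genotype of a cell and whether its cord was injured are unknown. The cells were therefore pooled and compared without a test. Clustering gave a progenitor-like class of 58 cells (413270 UMIs), 22 of them of code 020 and 35 of code 073, and an ependymal-like class of 1500 cells (9866071 UMIs), mostly of codes 018 and 072. Levels are UMIs per 1000000 UMIs of the class (CPM), and a gene was counted when it had at least 20 CPM in 1 class and the classes were 2-fold apart. Of the 1176 genes, 1164 were in the table and 631 reached 20 CPM. Of these, 416 (65.9%) were higher in progenitor-like cells and 64 (10.1%) lower, against 31.3% and 19.8% of all 8000 genes at that level. Among genes with 3 or more peaks 29 of 33 (87.9%) were higher and 1 lower. Genes of ACNT peaks had 43.1% higher, those of VP peaks 34.4% and those of EP peaks 20%, with 43.8% of the EP genes lower. Because the 2 classes came largely from different library codes, the comparison was repeated with 499 cells of codes 020 and 073 from ependymal-like or unnamed clusters. Only 7 of code 020 and 6 of code 073 were ependymal-like. The unnamed included 191 cells of a cluster whose leading genes held Col1a1, and 185 of another with Lyz2 and Tyrobp, genes of myeloid cells. Against these 499 cells 426 of 625 genes (68.2%) were higher, against 30.3% of all genes. Against 84 mature oligodendrocyte-like cells 320 of 635 (50.4%) were higher, against 28.3% of all.

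**Figure D3:**
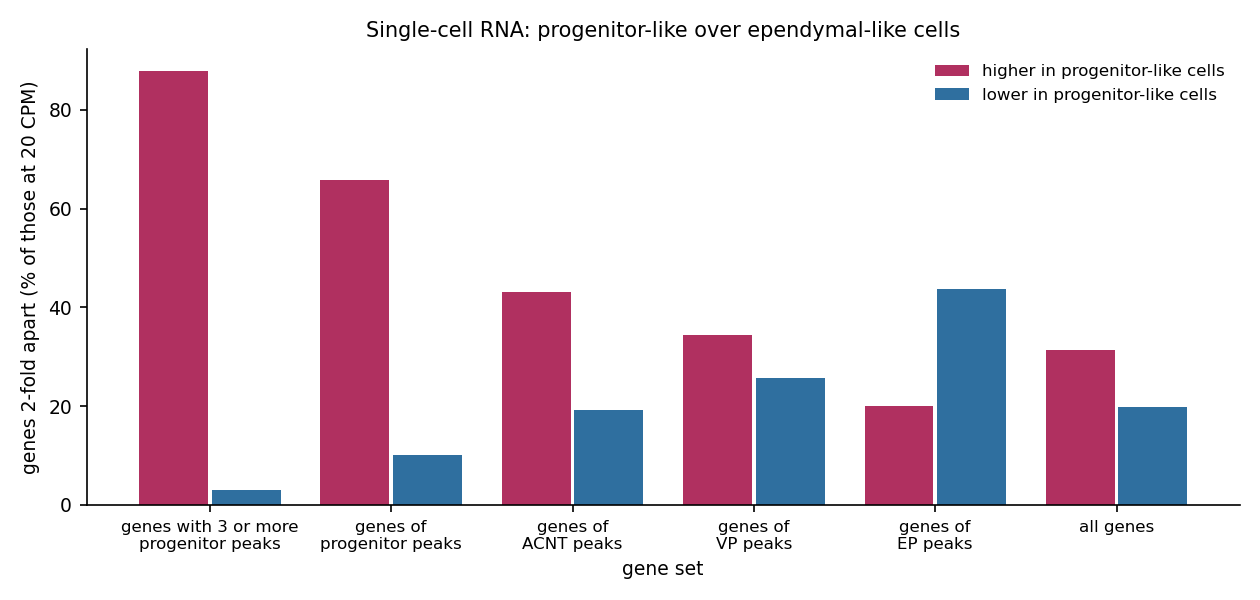
Share of genes, in percent of those with at least 20 CPM in either class, that were at least 2-fold higher (red) or lower (blue) in progenitor-like than in ependymal-like cells of the single-cell RNA data, for genes near each kind of peak and for all genes. The share higher is 87.9% for genes with 3 or more OPC peaks, 65.9% for all genes of OPC peaks and 31.3% for all genes.

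Several progenitor genes with peaks had few UMIs in ependymal-like cells, while Sox6 had 271.0 CPM in progenitor-like and 71.2 CPM in ependymal-like cells. Olig2 had 522.7 CPM in progenitor-like and 0.203 CPM in ependymal-like cells, C1ql1 1434.9 and 0.811 CPM, Lhfpl3 936.4 and 0.507 CPM, and Pdgfra 648.5 CPM and no UMI. Part of the samples were Foxj1_Olig2_tdT, and UMIs of an added Olig2 copy and of the gene itself cannot be told apart in these values. Gjc3 had 474.3 CPM in progenitor-like cells and no UMI in ependymal-like cells, and 1559.2 CPM in a cluster of 43 cells led by Enpp6 and Fyn. Gpr17, Neu4 and Frmd4a were likewise higher in that cluster, at 640.2, 530.0 and 708.3 CPM, than in progenitor-like cells, at 525.1, 425.9 and 53.2 CPM. Several other loci paired a high peak with little RNA. Gad1 had 2 UMIs (4.84 CPM) in the 58 progenitor-like cells, Tmem132e 5 UMIs (12.1 CPM), Dcc 2.42 CPM and Cdh6 2.42 CPM, though each had 1 of the 10 highest peaks. Of the other neuron list genes, Elavl4 had 113.7 CPM in progenitor-like cells and no UMI in ependymal-like cells, while Tubb3, Syt1 and Rbfox3 had between 2.42 and 12.1 CPM. The cilia genes went the other way: Tekt1 had 7.26 CPM in progenitor-like and 484.6 CPM in ependymal-like cells, and Dnah11 7.26 and 77.7 CPM, despite their OPC peaks of 26.8 and 11.4 CPM.

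The bulk RNA of ependymal cells asked how the genes of these peaks behaved when Olig2 was added. Values were normalised counts as the authors deposited them, and 983 of the 1176 genes had a row and 964 passed the filter on low values. Differences are on the log2(value + 1) scale, Foxj1_Olig2_tdT minus Foxj1_tdT, tested with limma and adjusted by Benjamini-Hochberg over 15788 genes at a threshold of 0.05. Libraries summed to between 12582433 and 13860281 and had between 14374 and 15358 genes above 0. The Foxj1_tdT uninjured libraries were nearly identical (r = 0.990 across genes, against 0.864 to 0.928 in the other 5 pairs), so counts are also given with that pair entered as 1 library. Another library stood apart: Foxj1_tdT 1dpi replicate 1 had 28569 for the sum of myelin genes and 13848 for fibroblast genes, against 2766 and 226 in replicate 2. In sorted bulk samples, a change in RNA per cell and a change in the share of cells of a type cannot be told apart.

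Olig2 itself was higher in Foxj1_Olig2_tdT cells at each time. It had 2450.1 and 1690.3 in Foxj1_Olig2_tdT uninjured libraries, against 4.5 and 4.4 in Foxj1_tdT (log2 difference 8.55, SE 0.96, limma adjusted p = 0.00114). At 1dpi the values were 3840.5 and 3960.9 against 11.7 and 2.2 (9.26, limma adjusted p = 0.00263), and at 5dpi 2794.1 and 3792.5 against 17.4 and 195.2 (5.76, limma adjusted p = 0.00517). The last call was lost without Foxj1_Olig2_tdT 5dpi replicate 2 (adjusted p = 0.0541). Reads of an added copy and of the gene near the peak cannot be told apart in these values. Foxj1, which marks ependymal identity, did not pass the test without injury (0.20, limma adjusted p = 0.517) or at 5dpi (−0.40, adjusted p = 0.158). At 1dpi Foxj1 had 2192.5 and 2301.5 against 1368.5 and 1113.0 (0.86, adjusted p = 0.0306, up to 0.108 with a library left out).

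Across the 3 times, genes of the OPC peaks were called higher about as often as genes in general. Without injury 45 of 964 (4.67%) were called higher and 46 (4.77%) lower in Foxj1_Olig2_tdT cells, against 4.71% and 3.03% of all genes tested. At 1dpi 13 (1.35%) were higher and 9 (0.934%) lower, against 1.29% and 0.551%, and at 5dpi 35 (3.63%) were higher and 56 (5.81%) lower, against 3.36% and 5.88% (9.24% in either direction). Over the mean of the 3 times 40 (4.15%) were higher and 61 (6.33%) lower, against 3.62% and 3.39%. The share called lower stood above that of all genes without injury and for the mean of the times, and level with it at 5dpi. The median log2 difference was −0.016 without injury, −0.027 at 1dpi and 0 at 5dpi, where it was 0, −0.02 and 0.01 over all genes tested. With the near-identical pair as 1 library the counts fell to 19 without injury (1.97%, against 1.47% of all genes), 7 at 1dpi (0.726%, against 0.437%), 54 at 5dpi (5.60%, against 5.30%) and 32 for the mean (3.32%, against 2.06%). A single library also moved them: without Foxj1_Olig2_tdT 5dpi replicate 2 the 5dpi count was 35, and without Foxj1_tdT 5dpi replicate 2 it was 39.

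Genes of the peaks that were also transcribed in progenitor-like cells were counted apart. Of the 373 tested that were 2-fold higher there than in ependymal-like cells, 26 (6.97%) were called higher and 3 (0.804%) lower in Foxj1_Olig2_tdT cells, with a median log2 difference of 0.40. The 1986 genes with the same RNA pattern but no OPC peak had 127 (6.39%) higher and 25 (1.26%) lower, with a median of 0.38. At 5dpi, the time of these counts, the shares of the sets with and without a peak were thus close, and their difference was not tested. Without Foxj1_Olig2_tdT 5dpi replicate 2 the counts were 5 higher and 0 lower of 371 with a peak, and 21 and 6 of 1981 without one. Without any 1 of the other libraries they ran from 9 to 35 higher and from 0 to 6 lower with a peak. Without injury 20 (5.36%) of the 373 were higher and 20 lower, and at 1dpi 5 (1.34%) and 2 (0.536%). The set without a peak had 7.3% higher and 3.73% lower without injury, and 0.957% and 0.906% at 1dpi. All genes tested had 4.71% and 3.03% without injury, and 1.29% and 0.551% at 1dpi. Genes whose start lay inside an OPC peak had 8 called higher and 1 lower of 139 at 5dpi (5.76% and 0.719%). Genes with 3 or more peaks had 3 and 1 of 33. Over all genes tested the shares at 5dpi were 3.36% and 5.88%. Genes of EP peaks, for comparison, had 33 called higher and 299 lower of 1596 (2.07% and 18.7%).

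**Figure D4:**
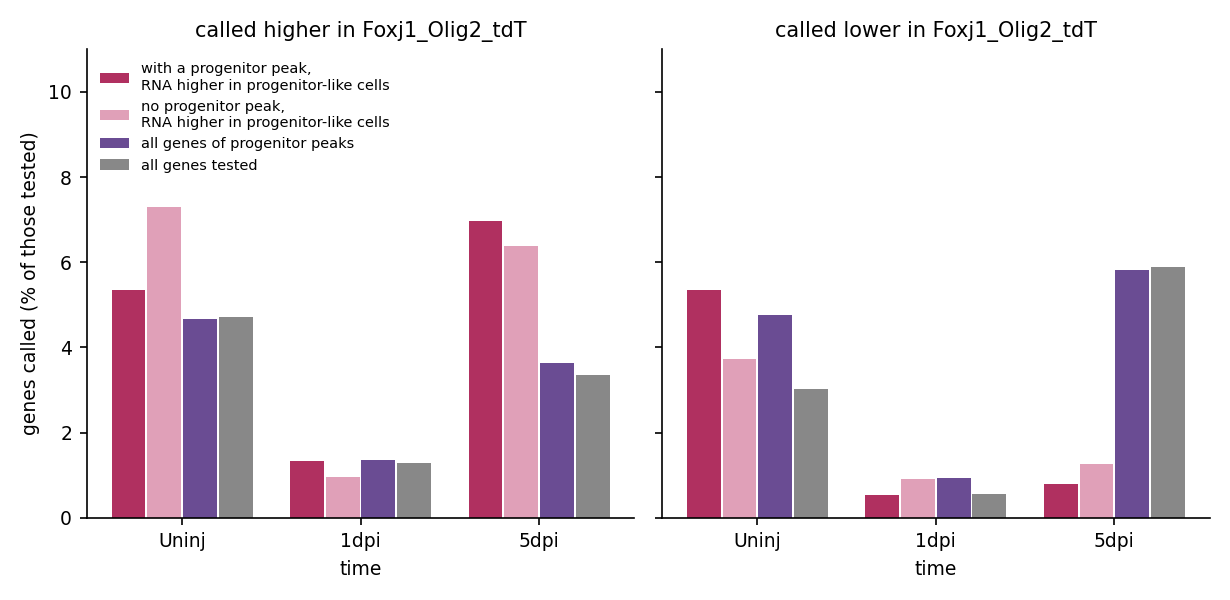
Share of tested genes called higher (left) or lower (right) in Foxj1_Olig2_tdT than in Foxj1_tdT bulk libraries at each time, in percent, for genes of OPC peaks with RNA higher in progenitor-like cells, genes with that RNA but no OPC peak, all genes of OPC peaks and all genes tested. At 5dpi the shares called higher are 6.97%, 6.39%, 3.63% and 3.36%, and the shares called lower 0.804%, 1.26%, 5.81% and 5.88%.

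Of the 35 genes that rose at 5dpi, 4 are given first. Prkg2 (a cGMP-dependent protein kinase, with peaks of 35.4 and 12.6 CPM in OPC) had 457.6 and 1059.2 in Foxj1_Olig2_tdT libraries, against 5.2 and 7.5 in Foxj1_tdT. The libraries of the genotypes did not overlap, and the log2 difference was 6.59 (SE 0.67, limma adjusted p = 0.000445). Prkg2 had 7.7 and 6.8 against 4.4 and 4.0 without injury, and 906.9 and 409.4 against 407.8 and 605.7 at 1dpi, where the genotypes overlapped. Enpp3 (an ectonucleotide pyrophosphatase, peak of 15.3 CPM at 18033 bp) had 69.9 and 83.6 against 0.9 and 0.9 (5.35, SE 0.88, limma adjusted p = 0.00501), although no UMI of it was seen in the progenitor-like cells. Frmd4a had 1033.0 and 1399.7 against 283.5 and 262.1 (2.14, limma adjusted p = 0.00329). Pdzrn4, whose promoter lay partly in a peak, had 68.7 and 17.4 in Foxj1_Olig2_tdT libraries. It was listed at 0 in both Foxj1_tdT libraries (limma adjusted p = 0.00839). These 4 calls held in all 6 processing alternatives and without any single library that could be left out. Without either Foxj1_Olig2_tdT 5dpi library, Enpp3 and Pdzrn4 fell under the filter on low values and were not tested.

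Other genes that rose at 5dpi lost the call when a library was left out. Gjc3 had 509.8 and 229.3 in Foxj1_Olig2_tdT libraries, against 11.2 and 30.4 in Foxj1_tdT (4.13, SE 0.95, limma adjusted p = 0.0242, up to 0.140). Grik3 (a kainate receptor subunit with a peak of 20.9 CPM at its start) had 186.0 and 129.1 against 3.1 and 10.2 (4.53, SE 0.89, limma adjusted p = 0.0124, up to 0.0724). Dll3 had 43.0 and 32.7 against 0.4 and 2.3 (4.16, SE 1.05, limma adjusted p = 0.0365, up to 0.146). In each of the 3 genes both Foxj1_Olig2_tdT libraries lay above both Foxj1_tdT libraries. Susd5 (207.4 and 117.3 against 14.3 and 0), Tgfa (an EGF receptor ligand, 206.0 and 247.8 against 21.7 and 1.8) and Chst3 (a chondroitin sulfotransferase, 119.1 and 62.9 against 1.0 and 8.2) were called as well, at limma adjusted p-values of 0.0234, 0.0361 and 0.0317. Their highest adjusted p with a library left out was 0.116, 0.222 and 0.155. C1ql2 (13.5 and 18.5) and Vstm2a (18.9 and 43.5), both listed at 0 in the Foxj1_tdT libraries at 5dpi, had their promoters in peaks and limma adjusted p-values of 0.0190 and 0.0489.

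Of the 56 genes that fell at 5dpi, 3 are given first. C1ql1, the gene beside a peak without a cut outside OPC and with 1434.9 CPM in progenitor-like cells, had 9.0 and 2.2 in Foxj1_Olig2_tdT libraries, against 100.3 and 300.4 in Foxj1_tdT (−4.95, SE 0.95, limma adjusted p = 0.0106, up to 0.0910 without Foxj1_Olig2_tdT 5dpi replicate 2). Medag (named for a role in adipogenesis, peak of 10.6 CPM at 37.8 kb) had 57.0 and 57.3 against 1996.7 and 1345.4 (−4.82, SE 0.61, limma adjusted p = 0.00133). Plekhg1 (a guanine nucleotide exchange factor, 18.9 CPM inside the gene) had 16.7 and 10.3 against 386.3 and 336.0 (−4.68, limma adjusted p = 0.00396). Both of the last were called in all 6 processing alternatives and without any single library. Plekhg1 had the opposite order at 1dpi, with 72.3 and 74.3 in Foxj1_Olig2_tdT libraries and 0 in both Foxj1_tdT libraries, and without injury it was listed at 0 in both Foxj1_Olig2_tdT libraries against 79.9 and 64.9.

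The 2 cilia genes among those with an OPC peak fell at 5dpi with the rest of their list. Dnah11 had 295.2 and 238.6 in Foxj1_Olig2_tdT libraries, against 1170.5 and 1377.1 in Foxj1_tdT (−2.25, limma adjusted p = 0.00104). Tekt1 had 627.8 and 510.2 against 1697.7 and 1733.9 (−1.60, limma adjusted p = 0.00133). Of 15 ependymal list genes tested, 12 were called lower and none higher at 5dpi, whereas at 1dpi 4 were called higher and 1 lower. Aldh1l1 (a folate enzyme that marks astrocytes) had 11 and 85.7 against 342.4 and 1090.2 (−4.25, limma adjusted p = 0.0137, up to 0.119) and Fbln2 (fibulin-2, of the matrix) 101.6 and 148.9 against 2099.7 and 1774.2 (−3.96, limma adjusted p = 0.0235, up to 0.118).

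**Figure D5:**
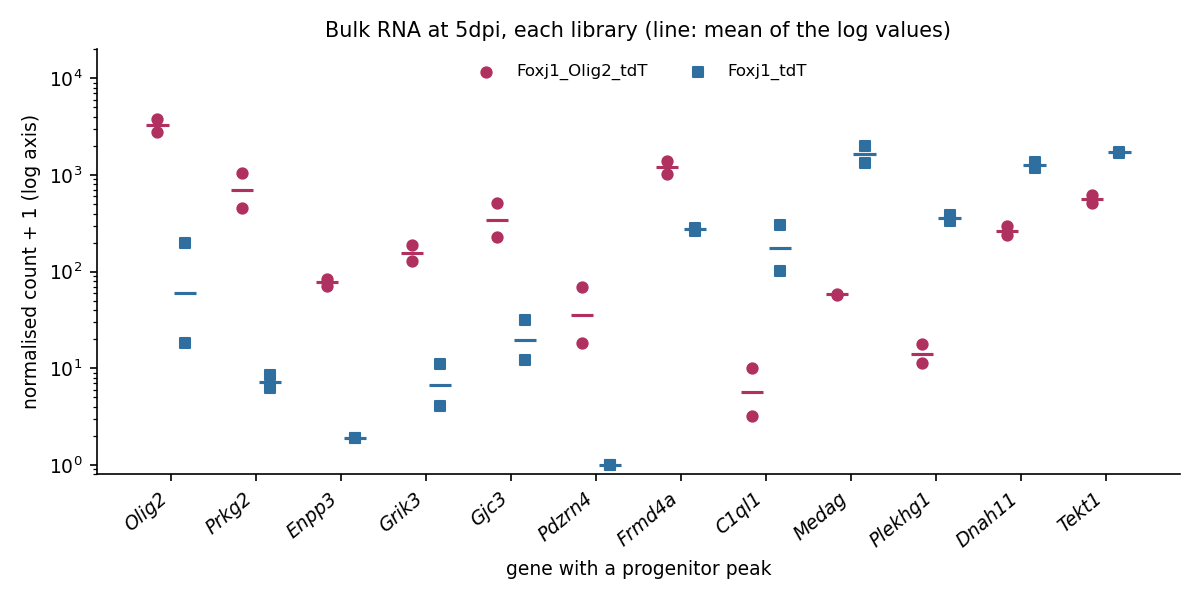
Normalised count plus 1 of 12 genes with an OPC peak in each bulk library at 5dpi, on a log axis, with Foxj1_Olig2_tdT (red circles) left of Foxj1_tdT (blue squares) and a line at the mean of the log values. Olig2, Prkg2, Enpp3, Grik3, Gjc3, Pdzrn4 and Frmd4a lie higher in both Foxj1_Olig2_tdT libraries, and C1ql1, Medag, Plekhg1, Dnah11 and Tekt1 lower.

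Most of the classical progenitor genes with peaks were not called at 5dpi, and several could not be. Of 12 tested membrane and secreted OPC genes with a peak none was called higher and C1ql1 was lower, while the median log2 difference was 2.35. Of the 7 transcription factors with a peak only Olig2 was called, and of 10 synaptic genes none. Over all genes tested 3.36% were called higher and 5.88% lower at 5dpi, so counts in such short lists say little. Cspg4 had 270.0 and 64.8 in Foxj1_Olig2_tdT libraries, against 17.6 and 33.8 in Foxj1_tdT (limma adjusted p = 0.212), and Xylt1 117.9 and 109.6 against 3.1 and 1.0 (limma adjusted p = 0.0712). Cacng4 had 171.3 and 197.2 against 17.9 and 75.4 (limma adjusted p = 0.192), and Tnr 519.6 and 35.8 against 0 and 2.7 (limma adjusted p = 0.0956). In all 4 genes both Foxj1_Olig2_tdT libraries lay above both Foxj1_tdT libraries without passing the test. Zfp488 leaned the other way, with 5.4 and 8.7 against 44.0 and 44.8 (−2.53, limma adjusted p = 0.0607). Pdgfra, Neu4, Dscam, Bmp4 and Rbfox3 had no tested row. Sox10, whose neighbourhood held 3 peaks, had 591.6 and 765.4 in Foxj1_Olig2_tdT libraries and was listed at 0 in both Foxj1_tdT libraries at 5dpi (limma adjusted p = 0.000693), and without injury and at 1dpi no library was above 6.3.

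The summed values of marker lists also differed between the libraries. At 5dpi membrane and secreted OPC genes summed to 19564 and 15353 in Foxj1_Olig2_tdT libraries, against 7002 and 8624 in Foxj1_tdT. The same order stood at the other times, with 8240 and 8053 against 2871 and 2931 without injury and 12960 and 16362 against 4927 and 4852 at 1dpi. Myelin genes had 8184 and 7656 against 3649 and 4473 at 5dpi, but 8886 and 7055 against 15442 and 15444 without injury. Astrocyte genes had 43741 and 38244 against 58536 and 55188 at 5dpi, with 6 of 14 tested called lower and 1 higher (Aqp4). At 5dpi neuron genes had 7905 and 10529 against 5765 and 3096, with 1 of 6 tested called higher (Stmn2), and fibroblast genes 9203 and 8626 against 6660 and 4426, with none of 5 called. Ependymal genes had 13306 and 9760 against 43653 and 48915 at 5dpi, but the opposite order at the other times. Without injury they had 163432 and 147834 against 139743 and 139460, and at 1dpi 79116 and 69166 against 49737 and 33893. At 5dpi none of the 5 endothelial, 6 pericyte and 4 microglial genes tested was called, against 9.24% of all genes, so such short lists say little. Without injury Vtn of the pericyte list and Csf1r of the microglial list were called lower. The part of the listed cell types in the results was not tested.

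Without injury, the genes of the peaks that rose included Ece2 (endothelin-converting enzyme 2, whose start lies in a peak of 29.1 CPM). It had 242.1 and 254.0 in Foxj1_Olig2_tdT libraries, against 2.0 and 0 in Foxj1_tdT (7.17, SE 0.56, limma adjusted p = 0.000221). Zfp536 (a zinc finger repressor of neural cells) had 234.3 and 197.9 against 0.7 and 3.3 (6.32, limma adjusted p = 0.00274), and Cracd (a regulator of actin capping) 170.3 and 89.9 against 0 and 1.9 (6.20, limma adjusted p = 0.00201). Nuak1 (an AMPK-related kinase) was lower, with 0 and 0.9 against 235.6 and 243.9 (−7.45, limma adjusted p = 0.00221). These 4 held under every alternative run, whereas Trit1, Epn2, Gria3 and Tns3 lost the call with the near-identical Foxj1_tdT pair as 1 library (adjusted p of 0.221, 0.152, 0.178 and 0.206). Among the listed genes, Epn2 had 928.6 and 388.3 against 166.8 and 149.2, a log2 difference of 1.92 (limma adjusted p = 0.0201). Elavl4, with 2 peaks in OPC, was listed at 0 in both Foxj1_Olig2_tdT libraries, against 198.4 and 144.1 in Foxj1_tdT.

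At 1dpi 22 of the genes were called. Arhgef26 (a guanine nucleotide exchange factor, peak of 11.02 CPM at 13.6 kb) had 2263.0 and 2038.8 in Foxj1_Olig2_tdT libraries, against 413.8 and 305.9 in Foxj1_tdT (2.59, SE 0.24, limma adjusted p = 0.00263). Etv5 (an ETS factor of growth factor signalling, peak of 29.5 CPM at 39.6 kb) was lower, with 112.0 and 73.1 against 2160.6 and 1177.2 (−4.12, SE 0.50, limma adjusted p = 0.00450). Both held under every alternative run. Thbs2 (a thrombospondin of the matrix) had 42.2 and 259.0 against 1279.1 and 2021.1 (−3.92, limma adjusted p = 0.0263, up to 0.112 with a library left out).

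Over the mean of the 3 times, the calls of Grik3, Dok5, Dgkg and Frmd4a held under every alternative run. Grik3 had a lowest, median and highest value of 11.6, 29.5 and 186.0 in the 6 Foxj1_Olig2_tdT libraries, against 0, 2.85 and 10.2 in the 6 Foxj1_tdT libraries (3.78, limma adjusted p = 0.00289). Dok5 (an adaptor of receptor kinases) was lower, with 52.6, 172.7 and 304.6 against 745.9, 1162.5 and 1342.2 (−2.97, limma adjusted p = 0.000750). Dgkg (a diacylglycerol kinase with a peak of 54.3 CPM inside the gene) was lower too, with 2.1, 3.3 and 7.0 against 22.4, 78.6 and 90.0 (−3.75, limma adjusted p = 0.00212). In these 3 genes the 6 libraries of each genotype did not overlap. Frmd4a was the fourth, with a log2 difference of 1.11 (limma adjusted p = 0.00823).

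The Olig2 effect differed between times for part of the genes. The effect is signed, so a lower effect can be a stronger fall and a higher one a weaker fall. Between 5dpi and no injury it differed for 72 of the 964, against 7.27% of all genes tested (2.63% with a higher effect at 5dpi and 4.64% with a lower one). Between 5dpi and 1dpi it differed for 67, against 8.32% of all (3.04% higher and 5.28% lower). Between 1dpi and no injury it was higher at 1dpi for 10 and lower for 16, against 0.918% and 1.84% of all genes, or 2.76% together. The effect on Prkg2 was 6.29 higher on the log2 scale at 5dpi than at 1dpi (limma adjusted p = 0.00396), and that on Tekt1 was lower at 5dpi (−2.31, limma adjusted p = 0.00168).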

How the data were processed

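The single-cell ATAC matrix as deposited held counts of cut sites for each of 96670 peaks and 1084 cells, with the authors' class name for each cell. In the deposited cell table the authors also listed a ratio of enrichment at gene starts and the percent of fragments that fell in peaks, and neither entered a result. The single-cell RNA matrix as deposited held UMI counts of 27998 genes, and the bulk RNA table held normalised counts per gene, a signal that the authors scaled in a way not given in the sources used here, so bulk depth is unknown. Per the submitters' processing notes, the build was mm10 and the tools were Bowtie2, SAMtools, deepTools, Cell Ranger ATAC and Cell Ranger, without versions.

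Cuts were summed by class and expressed per 1000000 of the pool. Peak positions are as the peak names give them. Each peak was assigned to the protein-coding gene that holds it or is nearest within 50 kb, from the RefSeq gene table on GRCm38. Cells of the RNA table (362 of library code 017 were not used) ranged from 818 to 52590 UMIs (median 6009), and 12 shared a barcode with another code. They were clustered on 2000 variable genes, 30 components and 15 neighbours (leidenalg 0.10.2, resolution 1, 19 clusters) and named from marker lists by a rule set after the clusters were seen. No doublet caller was run on either data set.

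The bulk test was limma (version 3.58.1, R 4.3.3) on log2(value + 1), with a trended variance, 12 libraries, 6 group means and 7 contrasts. It covered 15788 genes that reached 10 in 2 or more libraries. A call is a Benjamini-Hochberg adjusted p under 0.05. Of 16301 rows, 23 named like calendar dates were left out, and 21 genes were matched by an older symbol. The fit was tested on simulated data. The replicate numbers do not pair the libraries. Other software was scikit-learn 1.9.0, scipy 1.17.1, pandas 2.3.3, numpy 2.4.6 and matplotlib 3.10.9.

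The peaks, gene lists and tests were chosen with earlier results of these data known. Named genes are Olig2 and Foxj1, those with the most peaks, for each contrast the 10 highest and 10 lowest called differences with a mean of at least 50 in 1 group and libraries that do not overlap, and list members with a peak. Among them, those whose call held in most alternatives were preferred for full values. Those alternatives were a pseudocount of 8, no filter, median-of-ratios factors, quantile normalization, a replicate block, the near-identical pair as 1 library and each library left out. A few genes are not reported here.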

Additional observations from a re-analysis of the deposited data

Results flagged for a closer look

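For some of the genes named above the Olig2 effect (log2 difference, Foxj1_Olig2_tdT minus Foxj1_tdT) itself differed between times, by limma's interaction term with a Benjamini-Hochberg adjusted p under 0.05 over all genes tested. The values below are the effect at the later time minus that at the earlier one. Higher and lower refer to the signed effect, so a lower effect can be a stronger fall and a higher one a weaker fall.

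The effect was higher at 5dpi than without injury for Prkg2 (5.921), Enpp3 (5.828), Cacng4 (5.631), Pdzrn4 (5.162), Gjc3 (5.154), Frmd4a (1.923), Nuak1 (6.547) and Gria3 (4.641). Cacng4 had not passed the test at 5dpi itself. For Nuak1 and Gria3 the effect without injury was negative. The effect was lower at 5dpi than without injury for Zfp536 (−7.019), Medag (−6.228), Ece2 (−6.152), Cracd (−5.591), Dnah11 (−2.276) and Tekt1 (−1.682). For Medag, Dnah11 and Tekt1 the effect at 5dpi was itself a fall (−4.818, −2.254 and −1.598).

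Between 5dpi and 1dpi the effect was higher at 5dpi for Vstm2a (7.406), Prkg2 (6.292), Pdzrn4 (5.698), Etv5 (4.666) and Enpp3 (4.633), and lower for Plekhg1 (−10.89), Arhgef26 (−2.925), Tekt1 (−2.310), Dnah11 (−2.113) and Foxj1 (−1.266). For Etv5 the effect at 1dpi was a fall (−4.124). Between 1dpi and no injury the effect was higher at 1dpi for Plekhg1 (12.41) and Arhgef26 (2.501), and lower for Ece2 (−8.539), Fbln2 (−7.896), Zfp536 (−7.733) and Medag (−3.964).

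Pdzrn4, Vstm2a, Plekhg1 and Fbln2 were listed at 0 in both libraries of at least 1 group, so the size of their values depends on the pseudocount. The same holds for genes with values near 0 in a group, such as Ece2, Zfp536, Cracd, Nuak1 and Enpp3. Over the alternatives the effect without injury ran from 4.839 to 7.96 for Ece2, 3.892 to 6.963 for Cracd and −7.911 to −4.876 for Nuak1. The contrasts share the libraries of a time and are not independent of one another.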

How the results depend on the processing

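The number of OPC peaks (progenitor peaks) followed the thresholds, with 802 at a minimum of 20 CPM and 856 at 8 times each pool, and lay between 1244 and 2455 in the other alternatives. With the near-identical Foxj1_tdT uninjured pair as 1 library, the genes called numbered 19 without injury, 7 at 1dpi, 54 at 5dpi and 32 for the mean of the times, and 5, 15 and 31 for the differences of the effect (1dpi minus Uninj, 5dpi minus Uninj, 5dpi minus 1dpi). That setting used 1 library fewer, as did every fit with a library left out. The part of library number in the fall of the counts was not tested. Restricted to genes with at least 3 peaks, the same 7 counts were 2, 0, 4, 2, 1, 2 and 4. With each library left out in turn they ranged from 19 to 122, 7 to 37, 35 to 114, 33 to 130, 7 to 64, 19 to 116 and 32 to 88. The lowest counts came without a Foxj1_tdT uninjured library, except at 5dpi and for 5dpi minus 1dpi, where they came without Foxj1_Olig2_tdT 5dpi replicate 2. Same-numbered libraries did not deviate together (correlations of deviations between −0.0294 and 0.0222), so the numbers do not pair them. The replicate block gave 17 in place of 26 calls for 1dpi minus Uninj and left the other 6 within 1.5 times. Of 43 called values of named genes, 26 kept the call in all 6 processing alternatives, 20 kept it there and without every single library (Enpp3 and Pdzrn4 could not be tested without a Foxj1_Olig2_tdT 5dpi library), and none changed sign. Depth limits VP most, where a count of 0 allows 2.15 CPM.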
